A study of Homo sapiens with 15 samples.

Results

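The death receptors and the genes that control caspase 8 were examined in A549 cells, a human lung adenocarcinoma line used as a model of lung epithelium, after exposure to high oxygen. The set holds 10 of the 43388 genes in the deposited count files, taken by symbol: FAS, TNFRSF10A, TNFRSF10B, TNFRSF10C, TNFRSF10D, TNFRSF12A, TNFRSF1A, TNFRSF21, CFLAR and CASP8. All 10 genes had enough counts to be tested in every comparison. Hyperoxia was 95% oxygen and normoxia 21% oxygen, each held for 72 hours. Before that, cells received all-trans retinoic acid (ATRA, an active metabolite of vitamin A, at 1e-05 mM) or its ethanol vehicle for 24 hours. The RNA-seq libraries comprised 2 from hyperoxia with vehicle, 3 from hyperoxia with ATRA, 2 from normoxia with vehicle and 3 from normoxia with ATRA. A further 2 hyperoxia and 2 normoxia libraries carried labels that name neither ATRA nor vehicle, and are called the neither libraries here. All cells were wild type by their labels and of 1 line, and nothing in the sources used here says whether the libraries of a group came from separate cultures. The p-values therefore measure only the spread between these libraries, which may be technical.

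Death receptors are members of the tumour necrosis factor (TNF) receptor family that carry a death domain in their cytoplasmic tail. When FAS, TNFRSF10A (DR4) or TNFRSF10B (DR5) binds its ligand, the adaptor FADD joins the receptor to procaspase 8, which is activated there and starts the death programme. CFLAR encodes c-FLIP, a relative of caspase 8 without protease activity that competes for FADD, and TNFRSF10C and TNFRSF10D are decoys that bind the ligand TRAIL but lack a working death domain.

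FAS is a textbook target of the transcription factor p53, and a search of the hg38 sequence for a p53-type site is shown first. The search covered 2000 bases on each side of the start of each gene's canonical GENCODE 44 transcript, on both strands. The site of 20 bases was RRRCWWGYYY repeated without a gap (R is A or G, W is A or T, Y is C or T). The core CWWG had to match in both copies, and at most 2 mismatches were allowed at the R and Y positions. Sites with a gap or a changed core were not searched for. The allowance of 2 mismatches was chosen with the FAS site known. The FAS site lay in an intron at chr10:88991309-88991328, 511 bases after the start, and is printed 5′ to 3′ on the gene's strand with the site in capitals.
FAS intron site: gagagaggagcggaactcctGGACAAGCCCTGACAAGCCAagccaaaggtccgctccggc

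Promoters of 3 genes that behaved differently across the libraries are printed next, as the 250 bases before the canonical start on the gene's own strand. Capitals mark matches, on either strand, to the GC box GGGCGG, the TATA box TATAAA, the AP-1 site TGACTCA or the half-site AGGTCA of retinoic acid receptors. FAS, which was higher in hyperoxia, held 1 GC box. TNFRSF1A, which was lower, held none of the 4 motifs. The promoter of CFLAR, which was higher in hyperoxia and is not printed, also held none of the 4. CASP8, which did not pass the test for oxygen, held 1 AP-1 match.
FAS, chr10:88990548-88990797, plus strand: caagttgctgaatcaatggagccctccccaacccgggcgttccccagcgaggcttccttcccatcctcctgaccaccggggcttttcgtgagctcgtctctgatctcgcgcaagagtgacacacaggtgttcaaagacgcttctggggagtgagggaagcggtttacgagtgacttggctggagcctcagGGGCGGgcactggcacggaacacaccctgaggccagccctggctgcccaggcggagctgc
TNFRSF1A, chr12:6342077-6342326, minus strand: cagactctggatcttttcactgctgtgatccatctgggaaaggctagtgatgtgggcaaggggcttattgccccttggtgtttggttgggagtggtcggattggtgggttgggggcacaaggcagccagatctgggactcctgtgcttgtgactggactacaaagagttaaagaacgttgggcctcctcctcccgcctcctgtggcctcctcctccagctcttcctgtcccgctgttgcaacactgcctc
CASP8, chr2:201260286-201260535, plus strand: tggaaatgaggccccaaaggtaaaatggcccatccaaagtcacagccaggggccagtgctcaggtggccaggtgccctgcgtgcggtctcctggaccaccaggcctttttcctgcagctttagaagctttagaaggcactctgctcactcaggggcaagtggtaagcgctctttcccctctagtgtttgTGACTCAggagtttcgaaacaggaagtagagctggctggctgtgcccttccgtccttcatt

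TNFRSF10B, also a textbook p53 target, held the only other site of the searched form among the 10 genes, in an intron 390 bases after its start. Such a site was found in 1.62% of 20007 windows of the same size. The GC box occurred in 5 of the 10 promoters, against 59% of 20007 promoters of the same length. The TATA box occurred in TNFRSF10C and TNFRSF10D, the decoys, against 9.34% of promoters. The AP-1 site occurred in CASP8 alone, against 3.06%, and the retinoic acid half-site in TNFRSF10A alone, against 9.97%. These matches describe letters in a window and were not tested for binding.

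The genes lie on 6 chromosomes of GRCh38. TNFRSF10A, TNFRSF10B, TNFRSF10C and TNFRSF10D are neighbours on chromosome 8, between positions 23020133 and 23225102. CFLAR (201116164 to 201176687) and CASP8 (201233463 to 201287711) are neighbours on chromosome 2. FAS is on chromosome 10 (88964050 to 89017059), TNFRSF1A on chromosome 12 (6328771 to 6342076), TNFRSF12A on chromosome 16 (3020368 to 3022383) and TNFRSF21 on chromosome 6 (47231532 to 47309905).

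Counts on genes ranged from 2642377 to 5605072 per library, so that 3 counts, the limit that a count of 0 allows, equalled 0.53 to 1.15 CPM (counts scaled so that libraries of different depth can be compared); this covers counting error only. Hyperoxia neither library 1 stood apart. It had counts on 12657 genes where the others had 16465 to 20108, and lay at -199 on the first principal component where the others lay between -9.27 and 35.6. Hyperoxia ATRA library 1 stood apart on the second component of the 10 vehicle and ATRA libraries (-76.6, others -12.5 to 33.7). Calls of the 10 genes that rest on either library are given with and without it. The epithelial keratins KRT8 and KRT18 and the cadherin CDH1 were counted in all 14 libraries, and EPCAM reached at most 24 counts. The summed level of these 4 markers was 1650 to 4120 CPM in hyperoxia and 5650 to 9490 CPM in normoxia. Of the 4 leukocyte markers, CD68 made up nearly all of a sum that was 60.7 to 103 CPM in hyperoxia and 17.4 to 32.8 CPM in normoxia, while CD3E had no counts and PTPRC and LST1 had 1 count each in 1 library. The 4 fibroblast markers summed to at most 12.9 CPM and the 4 endothelial markers to at most 6.26 CPM, with DCN and VWF at 0 in all libraries. The part of these marker differences in the results below was not tested.

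Hyperoxia against normoxia gave the broadest separation of the 10 genes. Across the 7 hyperoxia and 7 normoxia libraries, the ranges did not overlap for 8 of the 10 genes, where 13.7% of the 15339 genes tested had no overlap. FAS, TNFRSF10A, TNFRSF10B, TNFRSF10C, TNFRSF10D, TNFRSF12A and CFLAR were higher in every hyperoxia library (6.34% of all genes), and TNFRSF1A was lower in every one (7.31% of all genes). TNFRSF21 and CASP8 overlapped. The overlap of TNFRSF21 came from hyperoxia neither library 1 alone, at 29.2 CPM, while the other 6 hyperoxia libraries had at least 66.0 CPM and no normoxia library more than 61.9 CPM. Without that library 9 of the 10 genes had no overlap (17.4% of all genes), 8 of them higher (8.74%) and 1 lower (8.7%), and CASP8 alone overlapped. Without hyperoxia ATRA library 1 the count stayed at 8 (15.8% of all genes), 7 of them higher (7.54%) and 1 lower (8.29%). Both values were added after the libraries that stood apart were seen.

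**Figure D1:**
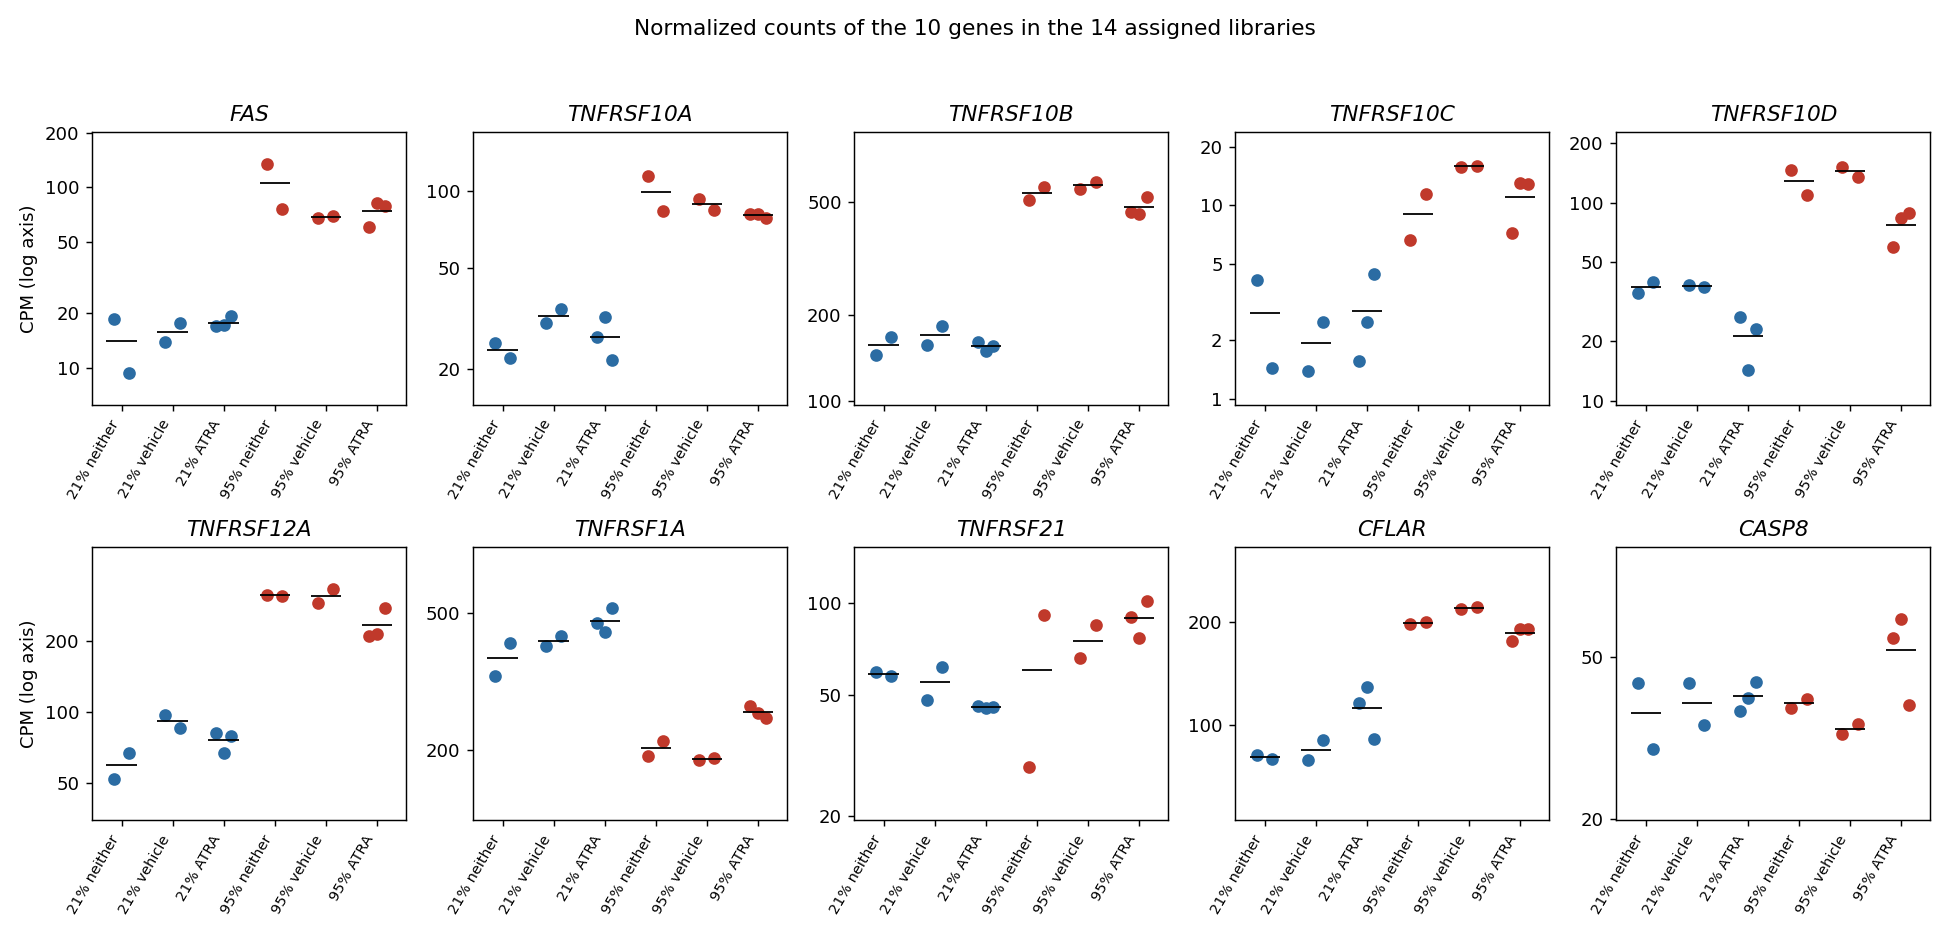
Normalized counts (CPM, log axis) of the 10 genes in the 14 assigned libraries, by oxygen and pretreatment, with blue points for 21% oxygen, red points for 95% oxygen and a black line at each group mean. In 7 panels every red point lies above every blue point, in the TNFRSF1A panel every red point lies below, and in the TNFRSF21 and CASP8 panels the colours overlap.

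FAS, the receptor for FAS ligand, had 67.9 and 69.4 CPM in hyperoxia and 13.9 and 17.7 CPM in normoxia, both with vehicle. With ATRA it had 60.2, 82.3 and 78.9 CPM in hyperoxia and 17.0, 17.2 and 19.3 CPM in normoxia. The lowest hyperoxia value thus stood well above the highest normoxia value under both pretreatments. FAS rose 4.26-fold with vehicle (log2 fold change 2.09, standard error of the fit (SE) 0.23, adjusted p = 1.03e-06) and 4.12-fold with ATRA (2.04, SE 0.19, adjusted p = 7.18e-08). These and the following p-values come from the quasi-likelihood test of edgeR, and adjusted ones were corrected by the Benjamini-Hochberg method over all genes tested. FAS is overlapped on the opposite strand by ACTA2, the smooth muscle actin gene, which held 66.3% as many counts as FAS and shares 387 exonic bases with it. ACTA2 had 24.6 to 75.8 CPM in hyperoxia and 8.40 to 29.4 CPM in normoxia. The library kit keeps strand, but the strand setting of the counting is not given in the sources used here, and the part of ACTA2 reads in the FAS counts was not tested. In these bulk libraries, fewer cells with a transcript and less of it per cell cannot be told apart.

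TNFRSF10B encodes DR5, a signalling receptor for TRAIL, and had the highest level per transcript length of the TRAIL receptors at both oxygen exposures. It had 556 and 587 CPM in hyperoxia and 158 and 184 CPM in normoxia, both with vehicle. The ATRA libraries had 462, 453 and 522 CPM in hyperoxia and 162, 150 and 156 CPM in normoxia. The lowest hyperoxia value, 453 CPM, was far above the highest normoxia value, 184 CPM. The log2 fold change was 1.74 with vehicle (SE 0.13, adjusted p = 8.33e-09) and 1.62 with ATRA (SE 0.11, adjusted p = 1.07e-09, edgeR). RHOBTB2 overlaps the gene's end on the other strand with 21.2% as many counts, at 73.0 to 98.7 CPM in hyperoxia and 50.1 to 73.8 CPM in normoxia.

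TNFRSF10A encodes DR4, the other signalling receptor for TRAIL. It had 93.3 and 84.6 CPM in hyperoxia and 30.2 and 34.2 CPM in normoxia with vehicle, and 80.9, 81.5 and 78.4 CPM against 26.6, 31.8 and 21.6 CPM with ATRA. The groups did not overlap under either pretreatment. TNFRSF10A rose by 1.45 on the log2 scale with vehicle (SE 0.20, adjusted p = 1.75e-05) and by 1.59 with ATRA (SE 0.17, adjusted p = 4.81e-07, edgeR).

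The decoy receptors TNFRSF10C and TNFRSF10D moved the same way as the signalling receptors. TNFRSF10C, which is held on the membrane by a lipid anchor, was the least counted of the 10 genes. It had 60 and 91 counts (15.9 and 16.1 CPM) in hyperoxia with vehicle and 4 and 14 counts (1.39 and 2.48 CPM) in normoxia with vehicle. In the ATRA libraries it was at 7.21, 13.0 and 13.0 CPM in hyperoxia and 1.57, 2.50 and 4.42 CPM in normoxia. The separation was wide in ratio and small in counts, and its intervals were the widest of the set. The log2 fold change was 2.96 with vehicle (95% interval 1.73 to 4.19, adjusted p = 0.00108) and 1.94 with ATRA (0.95 to 2.92, adjusted p = 0.00489, edgeR). The non-coding gene LOC254896 overlaps TNFRSF10C with 62% as many counts, at 4.23 to 12.2 CPM in hyperoxia and 0.624 to 4.94 CPM in normoxia.

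TNFRSF10D carries a truncated death domain. It had 152 and 136 CPM in hyperoxia with vehicle against 38.6 and 37.8 CPM in normoxia with vehicle. The ATRA libraries had 59.9, 83.8 and 89.0 CPM in hyperoxia against 26.6, 14.4 and 23.2 CPM in normoxia. Both oxygen groups were thus lower with ATRA than with vehicle, while the hyperoxia group stayed above the normoxia group. The log2 fold change for oxygen was 1.91 with vehicle (SE 0.23, adjusted p = 3.31e-06) and 1.84 with ATRA (SE 0.20, adjusted p = 7.41e-07, edgeR).

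TNFRSF12A encodes Fn14, the receptor for TWEAK, which has no death domain. It had 288 and 333 CPM in hyperoxia and 97.0 and 85.1 CPM in normoxia, both with vehicle. With ATRA it had 209, 214 and 275 CPM in hyperoxia and 81.4, 66.5 and 78.6 CPM in normoxia. The lowest hyperoxia value, 209 CPM, stood well above the highest normoxia value, 97.0 CPM. TNFRSF12A rose 3.43-fold with vehicle (log2 fold change 1.78, SE 0.16, adjusted p = 1.04e-07) and 3.08-fold with ATRA (1.62, SE 0.14, adjusted p = 1.89e-08, edgeR).

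TNFRSF1A encodes TNFR1, the main receptor for TNF, and was the only one of the 10 genes that fell. It had 187 and 189 CPM in hyperoxia and 400.4 and 429 CPM in normoxia, both with vehicle. The values with ATRA were 267, 256 and 247 CPM in hyperoxia and 466, 439 and 517 CPM in normoxia. No hyperoxia library reached the level of any normoxia library. The log2 fold change was -1.14 with vehicle (SE 0.13, adjusted p = 1.48e-06) and -0.88 with ATRA (SE 0.10, adjusted p = 2.27e-06, edgeR).

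TNFRSF21 encodes DR6, a death receptor known from neurons and lymphocytes. It had 66.0 and 85.1 CPM in hyperoxia and 48.3 and 61.9 CPM in normoxia with vehicle, a log2 fold change of 0.45 (95% interval 0.05 to 0.85) that missed the threshold after adjustment (adjusted p = 0.122, edgeR; 0.03 when only these 4 libraries were fitted). With ATRA it had 90.1, 76.9 and 102 CPM in hyperoxia and 46.2, 45.3 and 45.8 CPM in normoxia, and it rose by 0.98 on the log2 scale (SE 0.16, adjusted p = 0.000128, edgeR). The oxygen groups were separate under both pretreatments, and the difference between the oxygen effects with ATRA and with vehicle was 0.53 on the log2 scale (adjusted p = 0.687 for the interaction, edgeR).

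CFLAR, the inhibitor, rose in hyperoxia, and CASP8, the initiator caspase, did not pass the test. CFLAR had 219 and 221 CPM in hyperoxia and 78.9 and 90.5 CPM in normoxia, both with vehicle. The values with ATRA were 176, 191 and 191 CPM in hyperoxia and 116, 129 and 91.1 CPM in normoxia. The ATRA groups lay closer together than the vehicle groups, from both sides, and still did not overlap. CFLAR rose by 1.37 with vehicle (SE 0.16, adjusted p = 2.29e-06) and by 0.73 with ATRA (SE 0.13, adjusted p = 0.000262) on the log2 scale, and the difference between these effects was -0.64 (adjusted p = 0.365 for the interaction, edgeR). The antisense gene CFLAR-AS1 held 6.81% as many counts.

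CASP8 had 32.3 and 34.2 CPM in hyperoxia and 43.1 and 34.1 CPM in normoxia, both with vehicle. With ATRA it had 55.5, 62.0 and 38.0 CPM in hyperoxia and 36.8, 39.6 and 43.5 CPM in normoxia. The groups overlapped under both pretreatments. The log2 fold change was -0.20 with vehicle (95% interval -0.70 to 0.30, adjusted p = 0.653) and 0.37 with ATRA (95% interval -0.04 to 0.77, adjusted p = 0.188, edgeR), intervals that allow a moderate change in either direction with vehicle.

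Counted over the set, 7 of the 10 genes were called higher and 1 lower in hyperoxia with vehicle, against 8.68% and 8.81% of the 14957 genes tested (17.5% in all). With ATRA, 8 were called higher and 1 lower, against 11.4% and 11.3% (22.7% in all), and the same 9 calls were made without hyperoxia ATRA library 1. The median log2 fold change of the 10 genes was 1.60 with vehicle and 1.61 with ATRA, where that of all genes was 0.01 in both. In the neither libraries, 6 were called higher and 1 lower, against 7.57% and 7.58% (15.2% in all), with a median of 1.72 where that of all genes was -0.10. These 3 comparisons use different libraries on both sides.

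**Figure D2:**
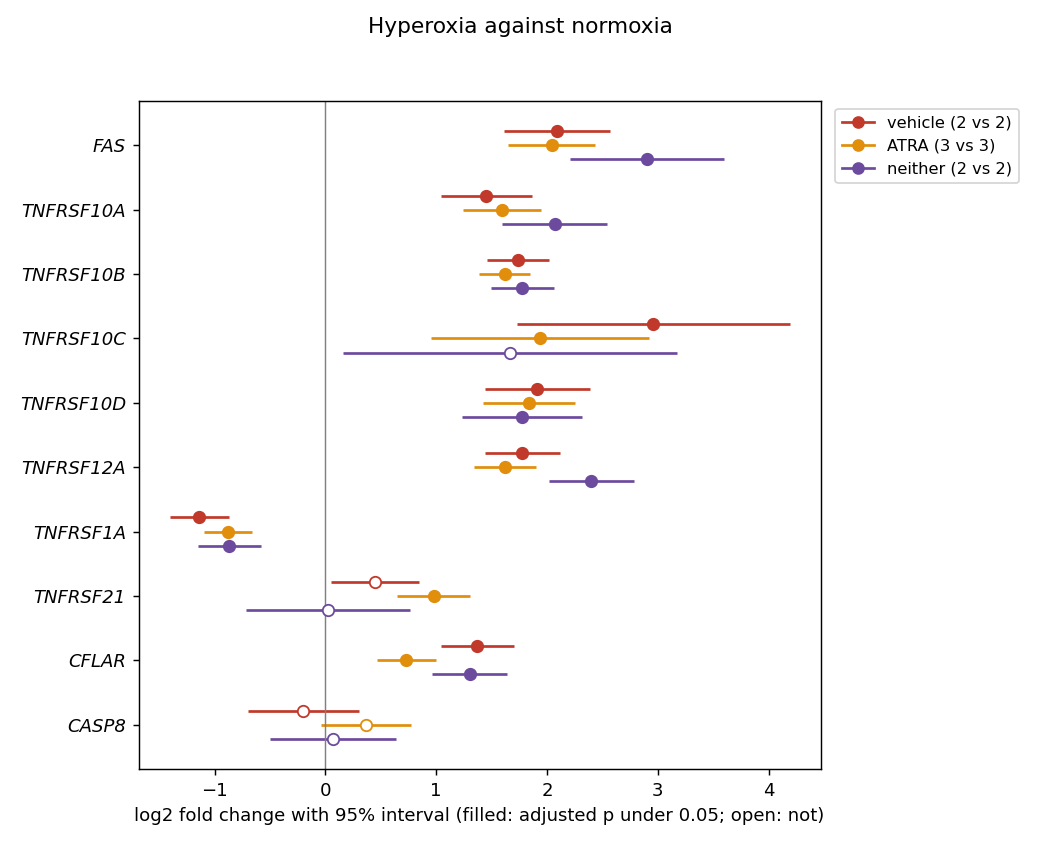
Log2 fold change of hyperoxia against normoxia with its 95% interval for the 10 genes, with vehicle (red), with ATRA (orange) and in the neither libraries (purple); filled points have an adjusted p under 0.05. FAS, TNFRSF10A, TNFRSF10B, TNFRSF10D, TNFRSF12A and CFLAR lie to the right of 0 and TNFRSF1A to the left with filled points in all 3 comparisons, while CASP8 has only open points.

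In the neither libraries, FAS had 135 and 75.9 CPM in hyperoxia and 18.7 and 9.36 CPM in normoxia. The log2 fold change was 2.90 (SE 0.33, adjusted p = 2.55e-05, edgeR), and it was 2.41 without hyperoxia neither library 1 (adjusted p = 6.28e-06, edgeR). That library, which stood apart, had the higher FAS level. TNFRSF21 had 29.2 and 91.9 CPM in hyperoxia and 59.5 and 57.6 CPM in normoxia, so that the hyperoxia libraries fell on either side of normoxia. Its log2 fold change was 0.02 (adjusted p = 0.97), it was 0.65 without hyperoxia neither library 1 (adjusted p = 0.076), and it was -1.06 without hyperoxia neither library 2 (adjusted p = 0.00176, edgeR). TNFRSF10C, at 6.59 and 11.4 CPM against 4.10 and 1.44 CPM, did not pass (log2 fold change 1.67, 95% interval 0.15 to 3.18, adjusted p = 0.128, edgeR). The 7 calls in this comparison were also made without hyperoxia neither library 1. When only these 4 libraries were fitted, 5 of the 7 were lost (FAS, TNFRSF10A, TNFRSF10D, TNFRSF1A and CFLAR, adjusted p = 0.0636 to 0.138, edgeR). TNFRSF12A had 313 and 311 CPM against 51.9 and 66.4 CPM, a log2 fold change of 2.40 (SE 0.18, adjusted p = 7.79e-07, edgeR).

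Levels were compared between genes per kilobase of the canonical transcript (CPM per kb), as the median of the 7 libraries at each oxygen exposure. In normoxia TNFRSF1A stood first at 198 CPM per kb (range 151 to 238), TNFRSF12A followed at 80.4 (53.1 to 99.3) and TNFRSF10B at 39.5 (36.4 to 46.0), and these 3 ranges did not overlap. In hyperoxia TNFRSF12A stood first at 295 CPM per kb (214 to 341), followed by TNFRSF10B at 130 (113 to 147) and TNFRSF1A at 97.8 (86.3 to 123), of which the last 2 ranges overlapped. TNFRSF1A thus stood above the other 2 in normoxia and below TNFRSF12A in hyperoxia. Below these, hyperoxia gave TNFRSF10A 31.1, TNFRSF10D 31.0, TNFRSF21 23.7, FAS 20.5, CASP8 14.3, CFLAR 13.5 and TNFRSF10C 9.31 CPM per kb, and each gene's range overlapped that of the next down to CFLAR (12.1 to 15.2), which did not overlap TNFRSF10C (4.73 to 11.5). In normoxia CASP8 was at 14.9 CPM per kb, TNFRSF21 at 13.4, TNFRSF10D at 9.93, TNFRSF10A at 9.89, CFLAR at 6.19, FAS at 4.64 and TNFRSF10C at 1.78. Neighbours in this order overlapped, except TNFRSF21 (12.6 to 17.2) with TNFRSF10D (4.06 to 11.3) and CFLAR (5.40 to 8.84) with FAS (2.53 to 5.21). The canonical CFLAR transcript is long (14612 bases), and a shorter isoform would give a higher CFLAR level.

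**Figure D3:**
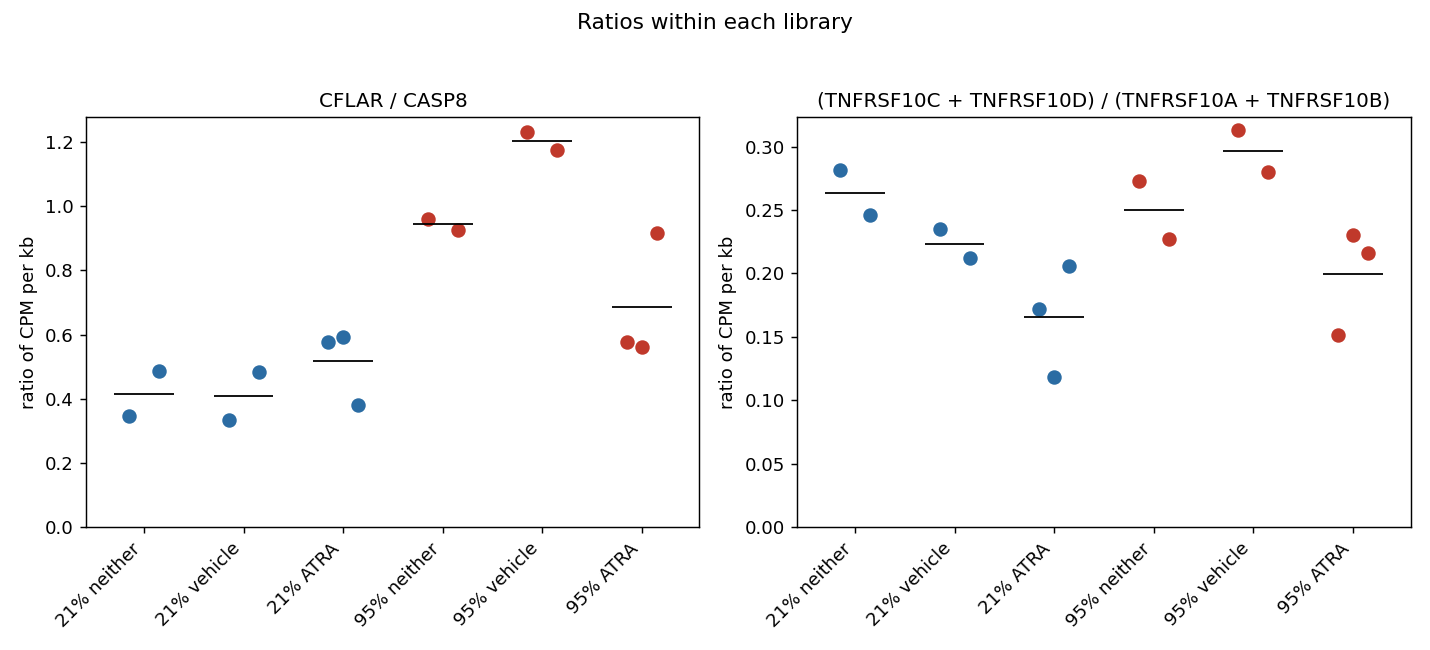
Ratio of CFLAR to CASP8 (left) and of the decoy receptors TNFRSF10C and TNFRSF10D to the signalling receptors TNFRSF10A and TNFRSF10B (right), in CPM per kb within each of the 14 libraries, with blue points for 21% oxygen, red points for 95% oxygen and a black line at each group mean. Without ATRA every red point of the left panel lies above every blue point, and on the right the ATRA points of each oxygen exposure lie below its vehicle points.

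The ratio of the inhibitor CFLAR to CASP8, in CPM per kb, was 1.23 and 1.18 in hyperoxia and 0.333 and 0.483 in normoxia, both with vehicle. In the neither libraries it was 0.961 and 0.925 in hyperoxia and 0.345 and 0.486 in normoxia. With ATRA it was 0.577, 0.561 and 0.917 in hyperoxia and 0.576, 0.593 and 0.381 in normoxia. The oxygen groups were separate with vehicle and in the neither libraries, and overlapped with ATRA. Because transcript length sets the size of this ratio, only its differences between libraries are read here.

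The ratio of decoy to signalling TRAIL receptors changed less with oxygen. It was 0.313 and 0.280 in hyperoxia and 0.235 and 0.212 in normoxia with vehicle, and 0.273 and 0.227 against 0.281 and 0.246 in the neither libraries. With ATRA it was 0.152, 0.230 and 0.216 in hyperoxia and 0.172, 0.118 and 0.206 in normoxia. The ATRA libraries lay below the vehicle libraries of the same oxygen exposure in both cases. The ratios are described without a test, since the genes in them were chosen.

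ATRA against vehicle gave fewer calls among the 10 genes than oxygen did. In hyperoxia TNFRSF10D was called lower and TNFRSF1A higher, 2 of 10 genes where 2.21% of all genes tested were called (1.52% higher and 0.695% lower). An unadjusted p under 0.05 (edgeR) was found there for 2019 of all 14957 genes tested and for 5 of the 10. These 5 were TNFRSF10D, TNFRSF1A, TNFRSF12A, CASP8 and TNFRSF10B. TNFRSF10D fell from 152 and 136 CPM with vehicle to 59.9, 83.8 and 89.0 CPM with ATRA, a log2 fold change of -0.90 (SE 0.19, adjusted p = 0.0135, edgeR). TNFRSF1A rose from 187 and 189 CPM to 267, 256 and 247 CPM, a log2 fold change of 0.45 (SE 0.12, adjusted p = 0.0495, edgeR). Both shifts ran against the oxygen difference in the same gene, and both comparisons share the hyperoxia vehicle libraries. Without hyperoxia ATRA library 1, which stood apart, neither passed (TNFRSF10D -0.73, adjusted p = 0.05, no longer under the threshold; TNFRSF1A 0.42, adjusted p = 0.118, edgeR). TNFRSF10D also lost its call without either vehicle library of hyperoxia, with adjusted p = 0.275 without library 1 and 0.098 without library 2. TNFRSF1A kept its call in 3 of 17 alternative analyses, with adjusted p from 0.00182 to 0.503 (edgeR and DESeq2).

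For the other 8 genes the adjusted p-values in hyperoxia ran from 0.151 to 0.882. CASP8 had 55.5, 62.0 and 38.0 CPM with ATRA and 32.3 and 34.2 CPM with vehicle, groups that did not overlap, with a log2 fold change of 0.63 (95% interval 0.17 to 1.09, adjusted p = 0.169, edgeR). TNFRSF12A gave -0.42 (95% interval -0.71 to -0.13, adjusted p = 0.151) and TNFRSF10B -0.25 (-0.50 to -0.01, adjusted p = 0.334). Without hyperoxia ATRA library 3, CASP8 (0.81, adjusted p = 0.0427) and TNFRSF12A (-0.56, adjusted p = 0.0396) were called by edgeR. Without hyperoxia ATRA library 1, which stood apart, neither was called (CASP8 0.56, adjusted p = 0.311; TNFRSF12A -0.35, adjusted p = 0.327, edgeR). The hyperoxia neither libraries had 37.4 and 39.4 CPM of CASP8, which overlapped the ATRA values. FAS gave 0.10 (95% interval -0.30 to 0.49, adjusted p = 0.882, edgeR). The FAS interval leaves out a change as large as that between oxygen exposures.

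In normoxia ATRA left all 10 genes uncalled by edgeR, where 1.25% of all genes were called (0.816% higher and 0.435% lower). An unadjusted p under 0.05 (edgeR) was found for 1315 of all 14957 genes tested and for 2 of the 10. These 2 were TNFRSF10D and CFLAR. TNFRSF10D had 26.6, 14.4 and 23.2 CPM with ATRA and 38.6 and 37.8 CPM with vehicle, with a log2 fold change of -0.82 (95% interval -1.29 to -0.35, adjusted p = 0.0891, edgeR). It was called by DESeq2 (adjusted p = 0.0392) and by edgeR without the filter on low counts (adjusted p = 0.00602), and also without hyperoxia ATRA library 1 (adjusted p = 0.0311). CFLAR had 116, 129 and 91.1 CPM with ATRA and 78.9 and 90.5 CPM with vehicle, with a log2 fold change of 0.40 (95% interval 0.09 to 0.71, adjusted p = 0.339, edgeR).

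The difference between the oxygen effects with and without ATRA was called for none of the 10 genes by edgeR. Over all genes edgeR called 0.14% (0.1% higher and 0.0401% lower). DESeq2 gave an adjusted p here only for TNFRSF10B, TNFRSF12A, TNFRSF1A and CFLAR, and called none of them. The other members could not be called by DESeq2. An unadjusted p under 0.05 (edgeR) was found for 1078 of all 14957 genes tested and for 2 of the 10. These 2 were CFLAR and TNFRSF21, given above. For CASP8 the difference was 0.57 on the log2 scale (adjusted p = 0.765, edgeR).

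**Figure D4:**
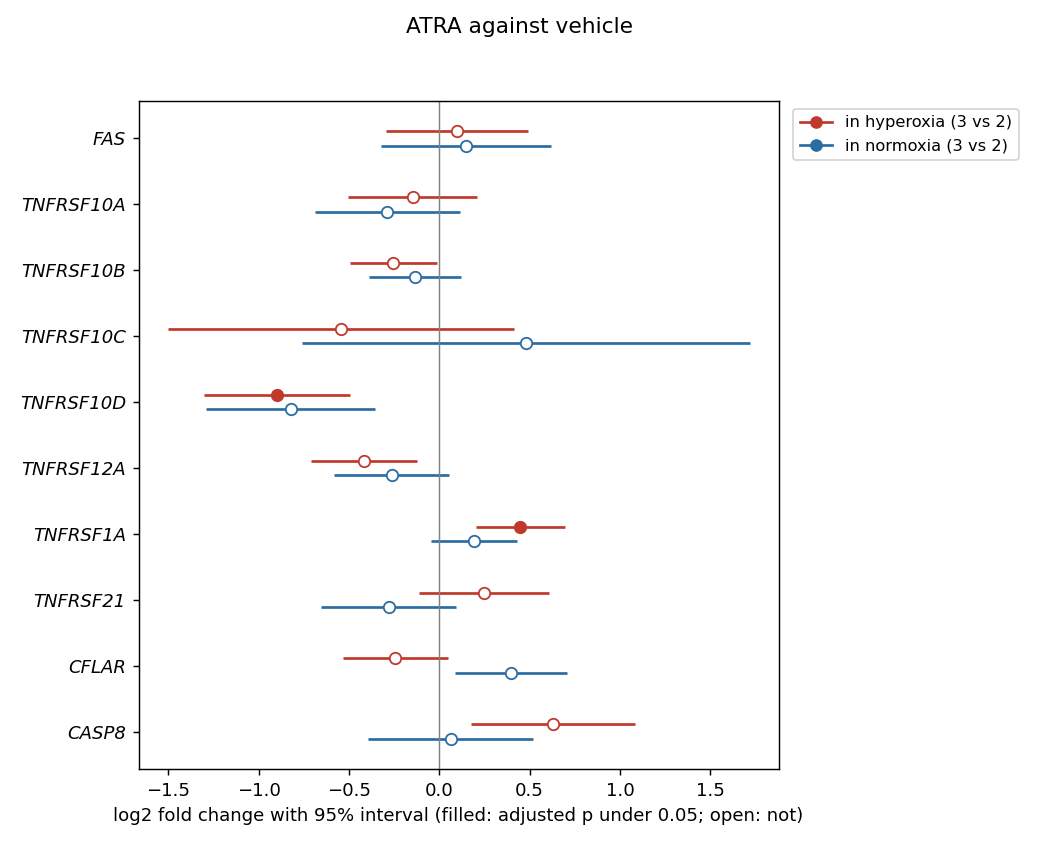
Log2 fold change of ATRA against vehicle with its 95% interval for the 10 genes, in hyperoxia (red) and in normoxia (blue); filled points have an adjusted p under 0.05. Only TNFRSF10D, at -0.90, and TNFRSF1A, at 0.45, have a filled point, both in hyperoxia.

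Vehicle libraries were also compared with the neither libraries, whose labels name no ethanol. None of the 10 was called by edgeR at either oxygen exposure, where 0.00652% of all genes were called in hyperoxia and 0% in normoxia. In hyperoxia 1366 of all 15339 genes tested and 0 of the 10 had an unadjusted p under 0.05 (edgeR). In normoxia 133 of all 15339 genes had one, and 1 gene of the 10. That gene was TNFRSF12A, at 97.0 and 85.1 CPM with vehicle and 51.9 and 66.4 CPM in the neither libraries (log2 fold change 0.62, unadjusted p = 0.0031, adjusted p = 1, edgeR). DESeq2 called 0 of the 10 as well, though in hyperoxia it gave no adjusted p for TNFRSF10C. Without hyperoxia neither library 2, FAS (-0.95, adjusted p = 0.00992) and TNFRSF21 (1.41, adjusted p = 2e-04) were called in hyperoxia against the single library that stood apart.

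The rest of the pathway was described with a list of 35 genes, 25 of them tested. In hyperoxia with vehicle edgeR called 8 higher and 0 lower, where 8.68% and 8.81% of all genes were called, and the median log2 fold change of the list was 0.17 (0.01 over all genes). With ATRA 8 were called higher and 1 lower, where 11.4% and 11.3% of all genes were called, with a median of 0.19 (0.01 over all genes). In the neither libraries 6 were called higher and 0 lower, where 7.57% and 7.58% of all genes were called, with a median of 0.29 (-0.10 over all genes). One of these 6, RBCK1 (0.65, adjusted p = 0.043), lost its call without hyperoxia neither library 1 (0.21, adjusted p = 0.593, edgeR) and in 12 of 19 alternatives in all. Without that library BIRC2 was called in its place, and the other 5 calls (BIRC3, HTRA2, PEA15, SHARPIN and TNFAIP3) were made again. When only the 4 neither libraries were fitted, BIRC3 and PEA15 were the 2 calls.

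Ligands were at or near the limit of counting. FASLG had 2 counts and TNF 0 counts over the 14 libraries, LTA had 15, and TNFSF10, which encodes TRAIL, had 58 with at most 11 in a library. TNFSF12, which encodes TWEAK, was the ligand that could be tested, and its log2 fold change was -0.25 with vehicle (adjusted p = 0.857) and -0.62 with ATRA (adjusted p = 0.464, edgeR). In hyperoxia with ATRA, library 1, which stood apart, had 5 counts of TNFSF12 (0.90 CPM), and libraries 2 and 3 had 11.5 and 10.2 CPM. The normoxia ATRA libraries had 9.65, 15.3 and 8.33 CPM. The other receptors of the family on the list, TNFRSF1B, TNFRSF25, TNFRSF11B, NGFR and EDAR, had 13 to 55 counts over the 14 libraries and could not be tested.

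Of 11 adaptors and parts of the TNF receptor complex, 6 rose in hyperoxia with vehicle, where 8.68% of all genes did, and 6 with ATRA, where 11.4% did. The 2 sets shared TRAF2, TNFAIP3, SHARPIN, BIRC2 and BIRC3. CYLD was called with vehicle and gave 0.66 with ATRA (adjusted p = 0.0874, edgeR). RBCK1, a part of the linear ubiquitin ligase, gave -0.00027 with vehicle (adjusted p = 1) and rose by 0.48 with ATRA (adjusted p = 0.00847, edgeR); the difference between its oxygen effects was 0.48 (adjusted p = 0.599 for the interaction, edgeR). FADD, the adaptor of the death receptors, gave -0.04 with vehicle (adjusted p = 0.95), and TRADD and RIPK1, which act downstream of TNFR1, gave 0.14 (adjusted p = 0.895) and 0.17 (adjusted p = 0.76, edgeR). BIRC3, which encodes the ubiquitin ligase cIAP2, had 477 and 430.1 CPM in hyperoxia and 51.1 and 45.4 CPM in normoxia, both with vehicle. It rose by 3.24 on the log2 scale (SE 0.19, adjusted p = 1.68e-10, edgeR). TNFAIP3, which encodes the NF-κB inhibitor A20, rose from 3.59 ± 0.82 to 39.0 ± 5.52 CPM (SD, n = 2 each), by 3.47 (SE 0.37, adjusted p = 8.11e-07, edgeR). SHARPIN, a part of the same ubiquitin ligase as RBCK1, rose by 0.85 (adjusted p = 0.00239) and BIRC2, which encodes cIAP1, by 1.10 (adjusted p = 0.000545, edgeR). CYLD (1.20, adjusted p = 0.0153) and TRAF2 (0.53, adjusted p = 0.049) were the remaining calls with vehicle. TRAF2 lost its call in 10 of 17 alternatives and CYLD in 5 of 17. For TRAF2 these included DESeq2 (adjusted p = 0.0597) and edgeR with RLE size factors (adjusted p = 0.0549). Leaving out any 1 of the 4 vehicle libraries ended both calls, at adjusted p = 0.0572 to 0.15 for CYLD and 0.198 to 0.3 for TRAF2 (edgeR).

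Of the caspases and BID, edgeR called 0 of 6 tested in each comparison, where for oxygen 17.5% of all genes were called with vehicle and 22.7% with ATRA. Among so few genes a count of 0 is near these shares. CASP10, at 0.87 with ATRA (adjusted p = 0.073, edgeR), was called higher with no filter on low counts, with the library set block, without normoxia ATRA library 2 and without hyperoxia ATRA library 3. In hyperoxia with vehicle CASP10, a close relative of CASP8, gave 0.52 (adjusted p = 0.461), and BID, a substrate of caspase 8, gave -0.46 (adjusted p = 0.27, edgeR). The medians of the 6 genes over the libraries of an oxygen exposure ran from 7.27 CPM (CASP6 in hyperoxia) to 32.6 CPM (BID in normoxia), low levels at which the intervals are wide. PEA15, which encodes a protein that binds FADD and caspase 8, rose from 123 ± 16.6 to 378 ± 22.6 CPM (SD, n = 2 each) with vehicle, by 1.63 (SE 0.15, adjusted p = 1.41e-07), and by 1.22 with ATRA (SE 0.12, adjusted p = 3.12e-07, edgeR). XIAP, a direct caspase inhibitor, gave 0.35 with vehicle (adjusted p = 0.21, edgeR). Of 4 genes of the mitochondrial arm, HTRA2 rose by 0.98 with vehicle (adjusted p = 0.00722, edgeR), a call lost without normoxia vehicle library 1 (0.0629) or 2 (0.078) or hyperoxia vehicle library 2 (0.0952). CYCS, which encodes cytochrome c, fell by 0.35 with ATRA (adjusted p = 0.0456, edgeR), and lost its call without hyperoxia ATRA library 1 (-0.25, adjusted p = 0.177), among others. Of the 2 necroptosis genes, RIPK3 had no counts and MLKL gave 0.36 with vehicle (adjusted p = 0.418, edgeR).

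**Figure D5:**
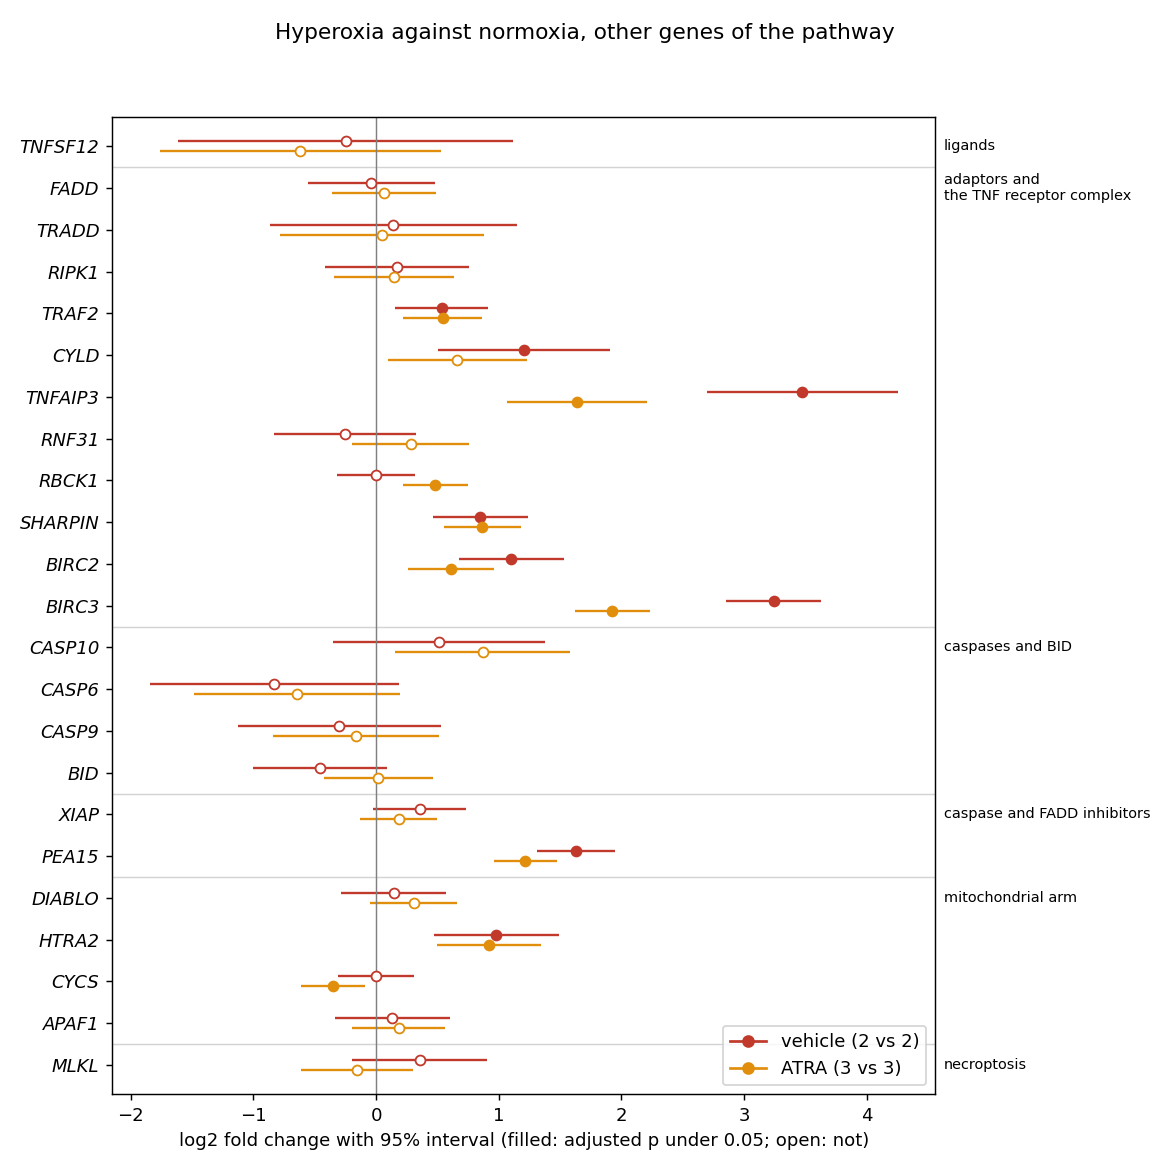
Log2 fold change of hyperoxia against normoxia with its 95% interval for 23 of the 25 tested genes of the pathway list, grouped by role, with vehicle (red) and with ATRA (orange); filled points have an adjusted p under 0.05. TNFAIP3 and BIRC3 lie farthest to the right, and the caspases shown and BID have only open points.

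With ATRA 1 gene of the list, BIRC3, was called lower in hyperoxia by edgeR, and edgeR called no gene of the list in normoxia. The shares over all genes were 0.695% lower in hyperoxia and 1.25% in either direction in normoxia. DESeq2 called CYCS lower in hyperoxia as well (-0.47, adjusted p = 0.0366), where edgeR gave -0.48 (adjusted p = 0.0779). TNFAIP3, at 1.44 with ATRA in normoxia (adjusted p = 0.0641, edgeR), was called there by DESeq2 (1.45, adjusted p = 0.038), and by edgeR with no filter on low counts (adjusted p = 0.0368) and without hyperoxia ATRA library 1 (adjusted p = 0.0294). BIRC3 had 198, 233 and 311 CPM with ATRA in hyperoxia, against 477 and 430.1 CPM with vehicle, a log2 fold change of -0.88 (SE 0.15, adjusted p = 0.00152, edgeR). The adjusted p was 0.00475 without hyperoxia ATRA library 1, and 0.0614 without hyperoxia vehicle library 1. In normoxia it had 68.3, 65.2 and 61.4 CPM with ATRA and 51.1 and 45.4 CPM with vehicle, a log2 fold change of 0.44 (adjusted p = 0.401, edgeR). The difference between these ATRA effects was -1.31 on the log2 scale (SE 0.23, adjusted p = 0.0145, edgeR).

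Over the 14 libraries, the 7 genes that were higher in every hyperoxia library varied together and TNFRSF1A varied against them. Pearson's r of log2 CPM between these 7 ran from 0.779 (TNFRSF10D with CFLAR) to 0.981 (TNFRSF10B with TNFRSF12A). It was 0.968 between TNFRSF10A and TNFRSF10B, and r of TNFRSF1A with the 7 genes was between -0.947 and -0.853. TNFRSF21 had r between 0.33 and 0.58 with the same 7 genes. The 14 include hyperoxia neither library 1, which stood apart, and no r without it is given. CASP8 had r between -0.0773 and 0.248 with the other 9 genes. Among 15338 other genes, the gene most like TNFRSF10B was CDKN1A (r = 0.993), which encodes the cell cycle inhibitor p21, the gene most like TNFRSF12A was IRAK1 (r = 0.989), and the gene most like TNFRSF1A was KRT18 (r = 0.984). FAS was most like JCAD (r = 0.978), TNFRSF10A like ATPAF2 (0.977), TNFRSF10C like ZNF134 (0.954), TNFRSF10D like PDCD11 (0.982), TNFRSF21 like WDR63 (0.953), CFLAR like IDS (0.979) and CASP8 like BRD3 (0.813). These values describe 14 libraries that fall into 2 oxygen groups, and genes counted in the same library share its depth and preparation. Genes whose oxygen ranges do not overlap therefore tend to give a high r, of either sign, with each other.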

How the data were processed

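RNA from A549 cells was sequenced from stranded libraries. The authors trimmed reads with Trimmomatic 0.38 (reads under 50 bases discarded), used hisat2 for alignment to hg38, and took counts for each gene symbol from htseq. The deposited values are these raw counts. The annotation release, strand and overlap settings are not given in the sources used here. Reads on no gene, 48.6% to 55.3% per library, were left out of library sizes.

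Groups were taken from the labels. In 1 library the title names hyperoxia and the treatment label adipogenic differentiation, so it was not assigned.

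Counts were filtered with filterByExpr (minimum count 10, minimum total count 15) and tested with edgeR 4.0.16 in R 4.3.3 by TMM normalization and a quasi-likelihood fit. The vehicle and ATRA comparisons used 10 libraries in 4 groups (14957 genes), and those with neither libraries used 14 libraries in 6 groups (15339 genes). Calls are Benjamini-Hochberg adjusted p under 0.05. CPM values were normalized over the 14 libraries, with a prior count of 2 on the log2 scale. Alternatives were DESeq2 1.42.0, RLE size factors, no filter, only the groups compared, all 14 libraries, vehicle pooled with neither, a block of library sets and leaving out each library. The procedure was tested on simulated data.

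Gene positions came from RefSeq for GRCh38.p14, transcript lengths and starts from GENCODE 44, and sequence from hg38. The 10 genes, the 35 pathway genes and the marker lists (epithelial, fibroblast, endothelial, leukocyte) were chosen with earlier results of these data known. The text names the 10 genes, genes of the pathway list, the markers, the most similar gene by Pearson's r for each of the 10, and genes overlapping them. The overlapping genes were chosen after their values were seen. Figures were drawn with matplotlib 3.10.9. Results for some genes and sequences covered by these rules are not reported here.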

Additional observations from a re-analysis of the deposited data

Results flagged for a closer look

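The library without a group was compared with the 4 normoxia libraries with vehicle or neither treatment, and 8 of the 10 genes stood above the highest of them. The share of all genes that did so was not determined, so this count has nothing to be read against. It had 70.3 CPM of FAS (normoxia 9.38 to 18.8), 89.9 CPM of TNFRSF10A (22.1 to 34.3) and 577 CPM of TNFRSF10B (146 to 184). It had 11.7 CPM of TNFRSF10C (1.39 to 4.10), 126 CPM of TNFRSF10D (35.2 to 40.1) and 380 CPM of TNFRSF12A (52.0 to 97.2). It had 90.6 CPM of TNFRSF21 (48.4 to 62.0) and 195 CPM of CFLAR (79.1 to 90.6). TNFRSF1A was at 217 CPM, below the normoxia range of 329 to 430.1 CPM, and CASP8 at 40.5 CPM, within its range of 29.8 to 43.2 CPM. These values include that library in the normalization, carry no test, and assign it to no group.

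The ATRA effect on BIRC3 differed between the oxygen exposures, with an interaction of -1.31 on the log2 scale (SE 0.23, adjusted p = 0.0145, edgeR). BIRC3 was lower with ATRA in 3 of 3 hyperoxia libraries and higher with ATRA in 3 of 3 normoxia libraries than in either vehicle library. The ATRA effect in normoxia alone had an adjusted p of 0.401 (edgeR). In the neither libraries BIRC3 had 395 and 407 CPM in hyperoxia, above the ATRA libraries. In normoxia they had 46.1 and 68.8 CPM, a range that held every normoxia ATRA library (61.4 to 68.3 CPM). The call was lost without normoxia ATRA library 1 (adjusted p = 0.0567), hyperoxia vehicle library 1 (0.136), normoxia vehicle library 1 (0.0744) or normoxia vehicle library 2 (0.221), and when all 14 libraries were fitted (0.239).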

How the results depend on the processing

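The oxygen calls with vehicle stayed at 8 of the 10 genes when any library was left out and at 8 to 9 under the other alternatives, and those with ATRA at 9 throughout. In the neither libraries 7 were called, with 7 to 8 when a library was left out, and 2 when only those 4 libraries were fitted. For ATRA against vehicle in hyperoxia 2 genes were called, with 0 to 3 when a library was left out. The count was 1 with no filter on low counts, with the library set block, with only the groups compared and with vehicle pooled with neither, and 0 with all 14 libraries. In normoxia none was called, with 0 to 1 when a library was left out, and 1 by DESeq2 and with no filter. The interaction gave 0 throughout, though DESeq2 gave an adjusted p there only for TNFRSF10B, TNFRSF12A, TNFRSF1A and CFLAR. Vehicle against neither gave 0 to 2 in hyperoxia when a library was left out and 0 in normoxia.

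Of 1383 values of the 10 genes in alternatives of 80 results, 1312 kept their direction and side of the threshold, 23 lost a call and 8 gained one. The direction changed in 40 values of 21 results, and in 39 of these neither value was called. The remaining value is TNFRSF21 in the neither libraries, whose oxygen difference was -1.06 without hyperoxia neither library 2 and 0.65 without library 1. The cause was not tested.

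Counts over all genes moved more than those of the 10 genes. With vehicle 2616 genes were called for oxygen (1386 to 3175 with a library left out, 1420 to 4665 otherwise), and with ATRA 3391 (2715 to 3359, 1975 to 3508). For ATRA in hyperoxia 331 were called (83 to 449, 116 to 522), in normoxia 187 (56 to 267, 70 to 300) and for the interaction 21 (4 to 28, 4 to 96). In the neither libraries 2324 were called (969 to 7364, 58 to 3006). Vehicle against neither gave 1 in hyperoxia (1 to 5630, 0 to 89) and 0 in normoxia (0 throughout, 0 to 3, with 133 genes at an unadjusted p under 0.05).

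No paired analysis was possible because the labels give no replicate numbers shared between groups. Sets of libraries inferred from library numbers, which no label calls a batch, were used as a block, and the oxygen calls stayed at 8 with vehicle and 9 with ATRA. Left out singly, a library of a group of 2 leaves 1, which is then assumed to vary like the other groups. Depth limited TNFRSF10C most, with 4 to 21 counts in the normoxia libraries.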
